A study of Mus musculus with 6 samples.

Results

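The SLC2 genes encode the GLUT proteins, membrane carriers that let hexoses cross a membrane down their gradient. Members of this glucose transporter family were taken by symbol from a list of 8 genes, Slc2a1, Slc2a2, Slc2a3, Slc2a5, Slc2a8, Slc2a9, Slc2a10 and Slc2a12, out of 55471 Ensembl genes in the count tables. All 8 were found, and 5 of them had enough counts to be tested. Liver RNA was sequenced from male C57BL/6J mice, a common inbred strain, all with the genotype WT. A 16 h fast preceded collection in 3 mice and a 4 h fast in the other 3, with 1 library per mouse. Food was withheld in both groups, so no value from fed mice is part of the comparison. The age of the mice is not given in the sources used here.

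Liver takes up glucose after a meal and releases it in a fast. In textbook accounts both directions run mainly through GLUT2, the low-affinity and high-capacity carrier encoded by Slc2a2, which sits in the hepatocyte membrane. Other members have a higher affinity for glucose, carry fructose or urate, or work on membranes inside the cell.

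Depth lay between 15173653 and 26572532 counts assigned to genes per library. The hepatocyte markers were in place in all livers, with Alb, the albumin gene, at 58593 ± 4879 CPM (counts scaled to library size with TMM factors) in the 16 h livers and 63034 ± 7428 CPM in the 4 h livers (SD, n = 3 each). Replicate 3 of the 4 h fast stood apart from the other livers. Its 8 lung epithelium markers summed to 187 CPM, against 5.93 to 8.44 CPM after 16 h and 5.86 and 6.66 CPM in the other 4 h livers. Its 10 neutrophil markers summed to 16.0 CPM, against 2.18 to 5.66 CPM after 16 h and 2.32 and 2.51 CPM in the other 4 h livers. Member results that rest on that library are given with and without it.

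Slc2a2 fell and Slc2a1 rose after the longer fast, and the other 3 tested members did not pass. All tests are edgeR's quasi-likelihood test of 16 h against 4 h with p adjusted over 13812 genes, and a gene passed below 0.05. Over all these genes 18.7% passed, 9.18% higher and 9.51% lower. These shares are also the background for the counts of every list below, and no list was tested as a set. Among the members 2 of 5 passed, 1 in each direction, and so few genes cannot be set apart from that background. For 4 of the 5 tested members the values of the groups did not overlap, which was also true of 39.4% of all genes tested. The median change of the 5 tested members was -0.30 on the log2 scale, against -0.028 over all tested genes.

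Sequences before the RefSeq start of the 2 members that passed are shown because they changed in opposite directions. They are the 250 bases before that transcription start in the mouse build GRCm38.p6, 5′ to 3′ on the strand of the gene, with every match to a searched motif in capitals. The first window covers chr3:28697653-28697902 and the second chr4:119108495-119108744, both on the plus strand.
Slc2a2: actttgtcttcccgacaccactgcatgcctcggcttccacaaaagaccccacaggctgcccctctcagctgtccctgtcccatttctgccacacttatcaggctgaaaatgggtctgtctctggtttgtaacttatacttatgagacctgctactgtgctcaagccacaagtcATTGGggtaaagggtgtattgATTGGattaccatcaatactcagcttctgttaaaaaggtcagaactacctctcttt
Slc2a1: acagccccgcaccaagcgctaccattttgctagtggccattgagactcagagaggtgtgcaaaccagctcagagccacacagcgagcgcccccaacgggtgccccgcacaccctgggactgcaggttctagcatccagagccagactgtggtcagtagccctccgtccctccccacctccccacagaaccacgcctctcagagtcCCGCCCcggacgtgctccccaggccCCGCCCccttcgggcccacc
Motifs searched on both strands were the CCAAT box (CCAAT), the GC box (GGGCGG), the TATA box (TATAAA), the E-box (CACGTG), a FOXO site (GTAAACA) and an HNF1 element (GTTAAT), and no matches of different motifs overlapped in these windows.

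The Slc2a2 window held 2 CCAAT boxes, both on the minus strand, starting 77 and 56 bases before the transcription start. The Slc2a1 window held 2 GC boxes on the minus strand, 45 and 20 bases before the start. GENCODE M21 starts the Slc2a1 gene at 119108711, so the end of that window and the GC box nearer to the RefSeq start lie inside the gene in that annotation. Of 32817 RefSeq windows of this length, 33.8% held a CCAAT box and 32.7% a GC box. Base composition differed too, with 66.4% G and C in the Slc2a1 window and 47.2% in that of Slc2a2, against a median of 52.4% over all windows. CG dinucleotides numbered 13 upstream of Slc2a1 and 2 upstream of Slc2a2. The letters of the other 4 motifs were not in either window. Over all windows a TATA box was in 12.4%, an E-box in 6.02%, a FOXO site in 3.16% and an HNF1 element in 6.44%. RefSeq windows were at hand for 7 of the 8 members.

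**Figure D1:**
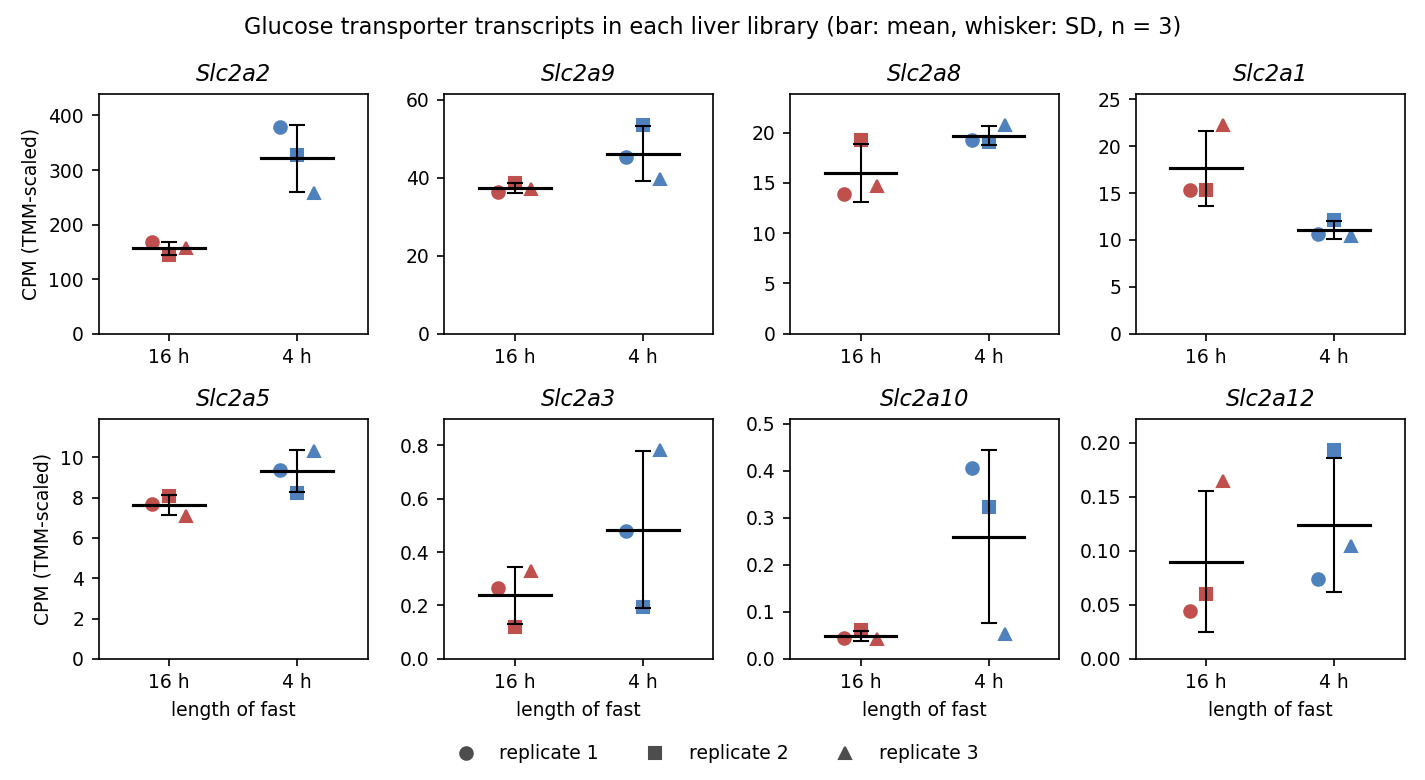
Each panel plots CPM (TMM-scaled, linear axis from 0, own scale) of 1 member in every library, 16 h fast on the left and 4 h fast on the right, with symbols for replicates, a bar for the mean and a whisker for the SD (n = 3). Slc2a2 lies at 145 to 169 CPM after 16 h and at 257 to 379 CPM after 4 h, Slc2a1 is the tested member that is higher after 16 h, and Slc2a3, Slc2a10 and Slc2a12 stay below 1 CPM.

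Slc2a2 lies on chromosome 3 at 28697903 to 28731359, plus strand, in the GENCODE M21 annotation of GRCm38, and none of its exon bases overlap another gene. The livers of the 16 h fast had 169, 145 and 156 CPM, and those of the 4 h fast had 379, 328 and 257 CPM. Every 16 h liver was below every 4 h liver, and the 16 h values lay closer together. The means were 157 ± 12.0 and 322 ± 61.3 CPM (SD, n = 3 each). The fitted log2 fold change was -1.04 ± 0.14 (SE), a 2.05-fold fall, with a 95% interval from -1.35 to -0.72 and an edgeR adjusted p of 6.67e-04. Among all tested genes 3.76% had a more negative log2 fold change. Without 4 h replicate 3, the lowest of its group, the log2 fold change was -1.16.

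Slc2a2 is a transcript of hepatocytes, so it was set beside the hepatocyte list. Of those 8 markers Tat, Cps1 and Hnf4a rose, Ttr fell and the other 4 did not pass, and their summed level ran from 82817 to 96120 CPM after 16 h and from 87485 to 94338 CPM after 4 h. Alb did not pass (log2 fold change -0.11 ± 0.13, edgeR adjusted p = 0.604). In bulk tissue, fewer cells of a type and less RNA per cell cannot be told apart.

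Slc2a1 encodes GLUT1, a high-affinity glucose carrier best known from human red blood cells and from the endothelium of the blood-brain barrier. The gene lies on chromosome 4 at 119108711 to 119137983, plus strand, with 2.99% of its exon sequence under an antisense gene. It had 15.3, 15.3 and 22.3 CPM in the 16 h livers, against 10.6, 12.2 and 10.4 CPM in the 4 h livers. The groups did not overlap, and replicate 3 of the 16 h fast stood well above its mates. The means were 17.6 ± 4.0 CPM after 16 h and 11.1 ± 0.96 CPM after 4 h (SD, n = 3 each). The log2 fold change was 0.68 ± 0.16 (SE), or 1.60-fold, with a 95% interval from 0.32 to 1.04 and an edgeR adjusted p of 0.0152. Without 16 h replicate 3 it was 0.48 and the call was lost (edgeR adjusted p = 0.0764). Over all alternatives the p ran from 1.26e-04, in the fit without the filter on low counts, to 0.0764.

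Erythroid, endothelial and macrophage markers were read beside that rise. The 8 erythroid markers summed to 57.5 to 103 CPM after 16 h and to 153 to 179 CPM after 4 h. Of the 6 tested, 1 was lower and 5 did not pass. The lower one was Alas2, the erythroid heme synthesis enzyme and the most abundant of them (log2 fold change -1.09 ± 0.11, 15.5% of its exon sequence under other genes). The 8 endothelial markers summed to 106 to 138 CPM after 16 h and to 104 to 126 CPM after 4 h, with 1 lower and 7 not passing. The 9 macrophage markers summed to 112 to 135 CPM after 16 h and to 120 to 212 CPM after 4 h, also with 1 lower and 8 not passing. Without 4 h replicate 3 the highest 4 h sum was 117 CPM for the endothelial and 159 CPM for the macrophage list. The falling endothelial and macrophage markers were Tek (-0.61 ± 0.18) and Timd4 (-0.85 ± 0.25), named after their values were seen. Without 4 h replicate 3 neither passed (edgeR adjusted p = 0.0704 and 0.0827). Tek lost its call whichever single library was left out (edgeR adjusted p from 0.0573 to 0.135). For Timd4 that p ran from 0.0358 to 0.132. No marker of these 3 lists was at 0 in all libraries. The part of these cells in the level of Slc2a1 was not tested.

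**Figure D2:**
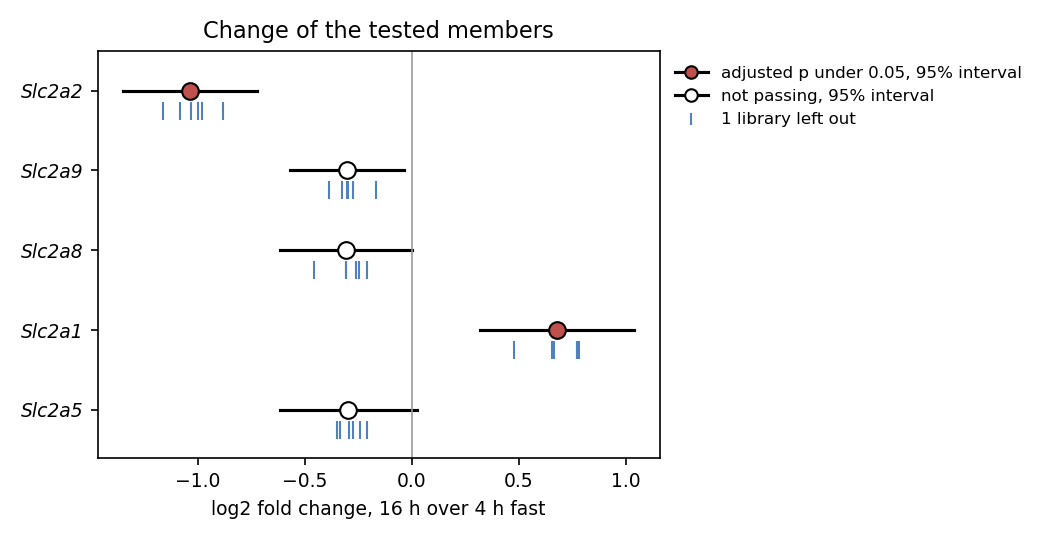
Points show the log2 fold change of each tested member, 16 h over 4 h fast, with 95% intervals, filled where the edgeR adjusted p was below 0.05, and ticks show the value with 1 library left out. Slc2a2 at -1.04 and Slc2a1 at 0.68 are filled, while Slc2a9, Slc2a8 and Slc2a5 sit close together near -0.30.

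Slc2a9 encodes GLUT9, which carries urate. Its gene lies on chromosome 5 at 38349273 to 38503143, minus strand. The 16 h livers had 36.3, 38.7 and 37.1 CPM, against 45.2, 53.6 and 39.6 CPM in the 4 h livers. All 16 h values were below all 4 h values, by a gap of under 1 CPM at the nearest. The log2 fold change of -0.30 ± 0.12 did not pass (edgeR adjusted p = 0.103). Without 4 h replicate 3, the library with lung and neutrophil transcripts, it was -0.39 and passed (edgeR adjusted p = 0.0122). Without 4 h replicate 2, which had the highest value, it was -0.17 (edgeR adjusted p = 0.389). Over all alternatives the p ran from 0.0122 to 0.389. Slc2a9 was the tested member whose call changed without 4 h replicate 3. The annotation gives 12 transcripts for it, which counts per gene do not separate.

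Slc2a8 encodes GLUT8, a carrier held on membranes inside the cell. Its gene lies on chromosome 2 at 32972990 to 32982083, minus strand. It had 13.9, 19.3 and 14.7 CPM after 16 h, against 19.3, 19.1 and 20.8 CPM after 4 h. Replicate 2 of the 16 h fast was at the level of the 4 h livers, and the groups overlapped. The log2 fold change was -0.31 ± 0.14 (edgeR adjusted p = 0.148). Its 95% interval ran from -0.62 to -0.0011, so a fall as large as that of Slc2a2 lies outside it.

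Slc2a5 encodes GLUT5, the fructose carrier best known from the intestine. Its gene lies on chromosome 4 at 150119283 to 150144169, plus strand. The 16 h livers had 7.70, 8.07 and 7.08 CPM, against 9.38, 8.25 and 10.3 CPM in the 4 h livers. The groups did not overlap, with replicate 2 of each group nearest to the other. The log2 fold change of -0.30 ± 0.15 did not pass (edgeR adjusted p = 0.18, 95% interval from -0.62 to 0.023). Its highest value was in 4 h replicate 3, and without that library the log2 fold change was -0.21. Intestinal and pancreatic markers, of which 3 of 7 were at 0 in all libraries, summed to 72.9 to 86.5 CPM after 16 h and to 74.0 to 93.5 CPM after 4 h, most of it from Fabp2. Without 4 h replicate 3 the highest 4 h sum was 80.4 CPM. Of the 2 tested markers, Fabp2 did not pass, and its log2 fold change of 0.26 ± 0.12 was opposite to the direction of the Slc2a5 values. Cela1, a pancreatic elastase gene, fell, the direction of the Slc2a5 values. Cela1 had 5.96, 8.01 and 5.27 CPM in the 16 h livers, against 17.3, 19.6 and 28.3 CPM in the 4 h livers (-1.77 ± 0.21, edgeR adjusted p = 3.37e-04), and it was named after its values were seen. The part of such tissue in the level of Slc2a5 was not tested.

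The remaining members were near the limit of detection and were not tested. Slc2a3 encodes GLUT3, the high-affinity carrier of neurons. It had 6, 2 and 8 counts in the 16 h livers, against 13, 3 and 15 counts in the 4 h livers, and the groups overlapped. Pooled by group this was 0.251 CPM (exact Poisson 95% interval 0.143 to 0.407) after 16 h and 0.504 CPM (0.343 to 0.716) after 4 h, on plain library totals. Its highest count was in 4 h replicate 3, the library with the highest neutrophil sum, and the part of those cells was not tested. Stretches of at least 100 bases with at least 95% identity to its transcripts occurred in 60 other genes, the longest of them 195 bases, so its few counts are uncertain.

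Slc2a10, whose human counterpart is known from arterial tortuosity syndrome, had 1, 1 and 1 counts after 16 h, against 11, 5 and 1 counts after 4 h. The 4 h counts came from replicates 1 and 2, and replicate 3 was at the level of the 16 h livers. The ratio of the pooled rates, 16 h over 4 h, was 0.17 (exact 95% interval 0.032 to 0.587). That interval covers counting error only and not the spread between livers. Slc2a12, which encodes GLUT12, had 1, 1 and 4 counts after 16 h, against 2, 3 and 2 counts after 4 h. Its pooled ratio of 0.825 had an interval from 0.229 to 2.87, so a change was not detectable at this depth. Of the Slc2a12 exon sequence, 9.61% lies antisense to the gene Tbpl1, and the longest match to a Tbpl1 transcript was 407 bases. That makes the few counts of Slc2a12 uncertain too. Had no read been counted, taken as a limit of 3 counts, up to 0.047 CPM would be allowed in the pooled 16 h libraries and 0.0488 CPM in the pooled 4 h libraries.

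With the filter on low counts removed, none of these 3 passed, with edgeR adjusted p of 0.405 for Slc2a3, 0.137 for Slc2a10 and 0.909 for Slc2a12.

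Levels of different members were compared as CPM per kb of exon, since longer transcripts give more counts. Slc2a2 was the most abundant in both groups, at 27.3 ± 2.1 CPM per kb after 16 h and 55.9 ± 10.7 CPM per kb after 4 h (SD, n = 3 each). Averaged over both groups it exceeded 92.8% of all tested genes on this scale. Slc2a9 came next, at 7.34 and 9.08 CPM per kb, and its 6 values did not overlap those of the members above and below it. Slc2a8 and Slc2a1 stood at 4.98 and 5.03 CPM per kb after 16 h with overlapping ranges, so their order was not resolved there. After 4 h they stood at 6.14 and 3.16 CPM per kb without overlap.

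Slc2a5 followed at 2.24 CPM per kb after 16 h and 2.74 CPM per kb after 4 h. Its range lay below that of Slc2a1 after 16 h and overlapped it after 4 h. Slc2a3, Slc2a10 and Slc2a12 were all below 0.12 CPM per kb in every library, and their order was not resolved. The order of the 8 over all libraries was the same when the longest annotated transcript replaced the union of exons as the length, an alternative chosen after seeing the data.

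**Figure D3:**
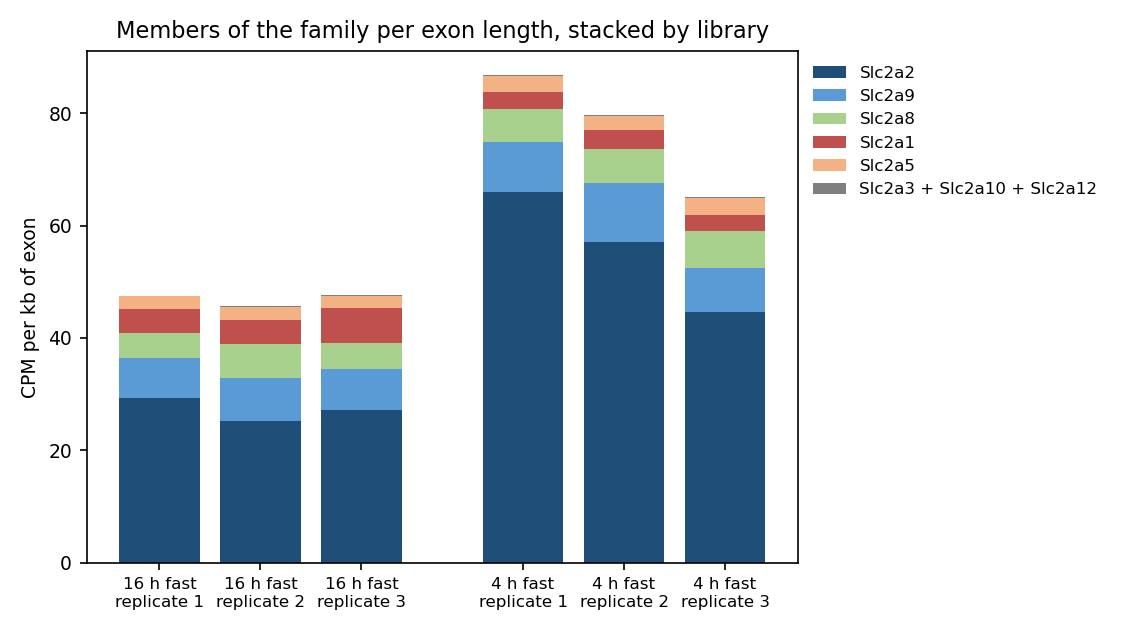
Stacked bars show CPM per kb of exon of the members in each library, 16 h livers on the left and 4 h livers on the right, with Slc2a3, Slc2a10 and Slc2a12 summed. The Slc2a2 block makes up 55.3% to 61.8% of the bar after 16 h and 68.6% to 75.9% after 4 h, and the blocks above it are of similar total height.

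The makeup of the family shifted as Slc2a2 fell. Slc2a2 held 61.8%, 55.3% and 57.1% of the summed CPM per kb of the 8 members in the 16 h livers, against 75.9%, 71.7% and 68.6% in the 4 h livers, and the groups did not overlap. Slc2a1 held 9.21%, 9.57% and 13.4% after 16 h, against 3.48%, 4.36% and 4.58% after 4 h. The ratio of Slc2a2 to Slc2a1 per kb was 6.71, 5.78 and 4.28 in the 16 h livers, against 21.8, 16.4 and 15.0 in the 4 h livers.

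The sum of all 8 members was 46.9 ± 1.1 CPM per kb after 16 h and 77.2 ± 11.03 CPM per kb after 4 h. Without Slc2a2 the other 7 summed to 18.2, 20.4 and 20.4 CPM per kb after 16 h, against 20.9, 22.5 and 20.4 CPM per kb after 4 h. Most of the difference in the sum was thus that of Slc2a2. No p is given for these sums and shares, since the members were chosen with earlier results known.

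The tested genes most like Slc2a2 over the 6 libraries were sought among 7442 genes averaging 10 CPM or more. Likeness was the root mean square difference of centred log2 CPM, whose median over those genes was 0.58. Kcp, which encodes a secreted protein of the chordin type, differed by 0.11, Col5a3, a collagen gene, by 0.12, and Tnxb, the tenascin X gene, by 0.13. Col5a3 and Tnxb encode matrix proteins, so the stellate cell and fibroblast markers are given here. Of these 7 markers 2 fell, 5 did not pass and none rose (median -0.42), with sums of 133 to 201 CPM after 16 h and 174 to 261 CPM after 4 h. The falling ones were the collagen genes Col1a1 (-1.46 ± 0.25) and Col3a1 (-1.70 ± 0.27), named after their values were seen. Dcn, the most abundant of the list, did not pass (0.11 ± 0.15). The part of these cells in the likeness was not tested. Kcp had 8.99, 8.01 and 7.99 CPM after 16 h, against 16.5, 16.9 and 13.8 CPM after 4 h.

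Genes that act on the carried sugars come next. The counts of these and the following lists stand beside 9.18% higher and 9.51% lower over all tested genes. Of 13 genes that phosphorylate hexoses or free them again, 12 were tested, 1 fell, 11 did not pass and none rose, with a median log2 fold change of -0.051. Gckr, which encodes a regulatory protein of the hepatocyte nucleus, fell to 215 ± 17.2 CPM in the 16 h livers, against 299 ± 26.2 CPM in the 4 h livers (-0.47 ± 0.11), a call lost when 4 h replicate 1, 16 h replicate 2 or 16 h replicate 3 was left out (edgeR adjusted p = 0.0657, 0.0892 and 0.0587, over all alternatives from 0.0019 to 0.0892). G6pc, the glucose-6-phosphatase that frees glucose for export and the most abundant of the list, had 507 ± 119 CPM in the 16 h livers and 427 ± 63.0 CPM in the 4 h livers and did not pass (0.25 ± 0.18, edgeR adjusted p = 0.349). Hk3, a high-affinity hexokinase, did not pass either (-0.62 ± 0.27). Slc37a4, the carrier of glucose 6-phosphate into the endoplasmic reticulum, had 252 ± 48.5 CPM in the 16 h livers and 201 ± 17.2 CPM in the 4 h livers (0.33 ± 0.15, edgeR adjusted p = 0.139). It passed as higher without 16 h replicate 1 (0.49, edgeR adjusted p = 0.0355, over all alternatives from 0.0355 to 0.386).

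Fructose and polyol genes had a median of -0.83, the lowest of the 6 further lists in the plot of sugar genes, with 4 of 5 lower, 1 not passing and none higher. Khk, the ketohexokinase that starts fructose breakdown, had 200, 232 and 271 CPM in the 16 h livers, against 479, 346 and 476 CPM in the 4 h livers. The groups did not overlap (-0.89 ± 0.15, edgeR adjusted p = 0.0025). Tkfc, the triokinase of the same route, fell by 0.96 on the log2 scale, although 20.0% of its exon sequence lies under other genes. Akr1b3, an aldose reductase, and Sord, the sorbitol dehydrogenase and the most abundant of the list, were the others that fell (-0.83 ± 0.23 and -0.38 ± 0.11). Akr1b3 lost its call when 4 h replicate 1, 16 h replicate 1 or 16 h replicate 2 was left out (edgeR adjusted p = 0.113, 0.085 and 0.109, with 0.0169 as the lowest without a single library). Leaving out 4 h replicate 1, or 16 h replicate 1 or 2, brought the count of falls in this list to 2. Sord kept its call without 4 h replicate 3 and lost it without any other single library (edgeR adjusted p from 0.0331 to 0.136). Glyctk, the glycerate kinase, passed as higher without 16 h replicate 1 (0.46, edgeR adjusted p = 0.0441, over all alternatives up to 0.396), with 54.2% of its exon sequence antisense to other genes.

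Urate genes were read beside Slc2a9, with 2 of 11 lower, 9 not passing and none higher (median -0.087). Uox, the urate oxidase that mice have and humans lack, had 1028, 980 and 1010 CPM in the 16 h livers, against 1999, 2069 and 1933 CPM in the 4 h livers. The spread within groups was small beside the difference (-0.99 ± 0.10, edgeR adjusted p = 1.17e-04). Slc22a7, an organic anion transporter, fell by 1.80 on the log2 scale to 11.4 ± 1.7 CPM after 16 h, against 39.3 ± 4.9 CPM after 4 h. Slc17a3, a phosphate and urate transporter, did not pass (-0.26 ± 0.12). Urad, which acts after urate oxidase, passed as higher without 4 h replicate 2 (0.47, edgeR adjusted p = 0.0311, over all alternatives up to 0.397). Glyctk and Urad too were named after their values were seen.

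Of 12 sodium-coupled and other sugar carriers, 5 were tested, 1 rose, 1 fell and 3 did not pass (median -0.037). Slc45a3, a member of the sucrose transporter family, had 62.1, 73.8 and 83.6 CPM in the 16 h livers, against 26.0, 21.7 and 16.7 CPM in the 4 h livers. All 16 h values lay above all 4 h values (1.77 ± 0.17, edgeR adjusted p = 6.57e-05), and 13.5% of its exon sequence lies under another gene. Slc5a3, a sodium-coupled carrier of myo-inositol, had 3.86 ± 0.76 CPM in the 16 h livers and 6.66 ± 0.75 CPM in the 4 h livers (-0.78 ± 0.19), a call lost when 4 h replicate 2, 16 h replicate 2 or 16 h replicate 3 was left out (edgeR adjusted p = 0.0533, 0.068 and 0.0842, with 0.0119 as the lowest without a single library). Slc5a1, the intestinal sodium-glucose carrier, did not pass (0.90 ± 0.41). Slc5a2, the renal one, had 0 counts in all libraries, as had Slc5a4a, Slc5a9 and Slc45a1, which allows up to 0.0239 CPM for each. For Slc5a2, 20.6% of exon bases overlap another gene.

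Transcription factors linked to GLUT genes showed 1 of 16 higher, 2 lower and 13 not passing (median -0.19). Mlxipl, which encodes the glucose-responsive factor ChREBP, fell to 209 ± 10.2 CPM after 16 h, against 528 ± 13.7 CPM after 4 h (-1.34 ± 0.10, edgeR adjusted p = 1.88e-05). Srebf1, a factor of insulin-driven lipid synthesis, fell by 2.35 on the log2 scale. Hnf4a, a hepatocyte identity factor and the most abundant of the list, rose to 1050 ± 168 CPM after 16 h, against 618 ± 25.1 CPM after 4 h (0.77 ± 0.13, edgeR adjusted p = 0.0024). Without 4 h replicate 3, 4 of the list fell, Foxa1 (-0.56, edgeR adjusted p = 0.0023) and Epas1 (-0.39, edgeR adjusted p = 0.0161) being the additional ones, with adjusted p up to 0.44 and 0.385 under other alternatives.

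Genes of GLUT trafficking and turnover had 2 of 14 higher, against 9.18% over all tested genes, 12 not passing and none lower (median 0.056). Arrdc4, an arrestin that promotes removal of GLUT1 from the cell surface, rose 1.43-fold (log2 fold change 0.52 ± 0.13, edgeR adjusted p = 0.0206). Its relative Txnip, the most abundant of the list, did not pass (0.10 ± 0.17), with 19.4% of its exon sequence under other genes, and its log2 fold change ranged down to -0.073 without single libraries. Snx27, a sorting nexin that returns GLUT1 to the surface, rose by 0.36 ± 0.11 (edgeR adjusted p = 0.046), and Vps26a, a retromer subunit, had 0.35 ± 0.11 without passing (edgeR adjusted p = 0.0532, from 0.0341 to 0.186 over the alternatives, of which 5 gave a pass). Arrdc4 lost its call when 4 h replicate 2 or a single 16 h liver was left out (edgeR adjusted p up to 0.0791, and down to 0.0149 without another), and Snx27 lost it in all such cases but that without 4 h replicate 3 (edgeR adjusted p from 0.0422 to 0.136). With plain library totals Snx27 did not pass either (edgeR adjusted p = 0.0843). The list count was 4 without 4 h replicate 3, and it was 0 when 4 h replicate 2 or a single 16 h liver was left out.

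**Figure D4:**
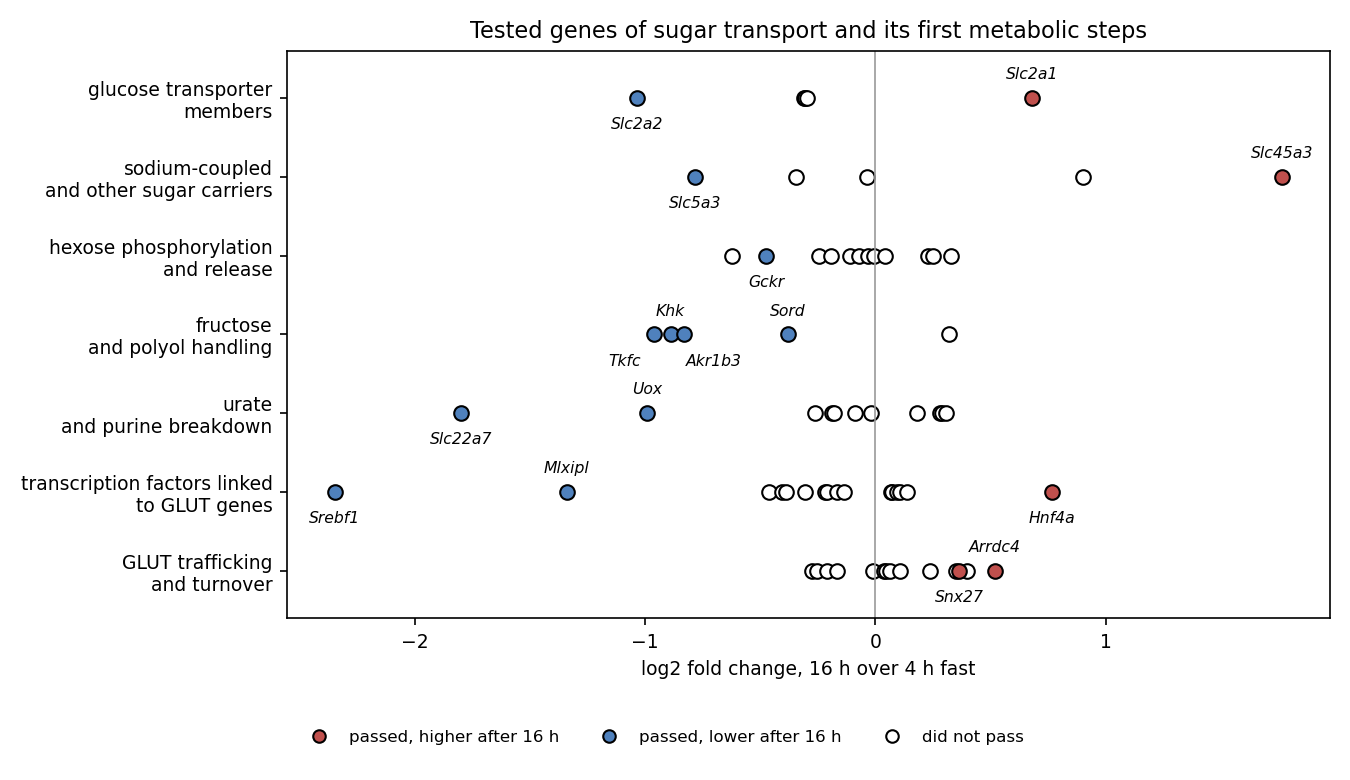
Each point is the log2 fold change, 16 h over 4 h fast, of 1 tested gene, in rows for the glucose transporter members and 6 further lists, coloured where the edgeR adjusted p was below 0.05 and open where it was not. Uox at -0.99 and Khk at -0.89 lie on the lower side with Slc2a2, and Slc45a3 at 1.77 is the point farthest to the right.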

How the data were processed

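The deposited values are whole-number read counts per Ensembl gene, 1 table per library, not normalised by the authors. The authors, per the submitters' processing notes, trimmed reads with Trimmomatic, aligned them to GRCm38 (mm10) with STAR and counted them with HTSeq. Versions, annotation release and strand setting are not stated there, so reads shared with an antisense gene cannot be assigned. The 5 summary lines of each table, 12.2% to 13.5% of its tallied reads, stayed out.

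Symbols, positions and exon lengths came from GENCODE M21, which names 99.57% of the identifiers, and upstream sequences from RefSeq (GRCm38.p6). Genes passing filterByExpr (minimum count 10) went into a robust quasi-likelihood fit of edgeR 4.0.16 (R 4.3.3), TMM-scaled, with the fasting group as single term. P-values are 2-sided and adjusted by the Benjamini-Hochberg method. Alternatives were other scalings, no filter, DESeq2 1.42.0, a replicate block and leaving out each library. Without the filter the SE was 0.128 for G6pc and 0.126 for Alb, against 0.18 and 0.13 with it. P-values of that fit, and low ends of ranges that come from it, therefore hardly reflect the spread of each gene between mice. Similar transcripts were found with BLAST 2.17.0. The test was checked on simulated data.

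Some genes of the sugar lists are not reported here and do not enter their counts. The 8 members, the other lists and the tests were chosen with earlier results of these data known. Named in each list were the 3 genes with the smallest adjusted p, the most abundant one and any with 0 counts, for marker lists the most abundant one, and for the most abundant member the 3 genes most like it. Intervals on counts hold for counting error alone, because counts were pooled per group and the spread between mice does not enter. PCR copies of a molecule count as separate reads where no molecular identifier is used, which these intervals do not allow for. The labels give 3 mice per group, and p-values measure the spread between these mice, except in the fit without the filter.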

Additional observations from a re-analysis of the deposited data

How the results depend on the processing

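All 5 tested members kept their direction under every alternative run. Slc2a2 passed in each of them, with an adjusted p of at most 0.0079. Slc2a1 ranged from 0.48 to 0.78 on the log2 scale when single libraries were left out and lost its call without 16 h replicate 3 (0.48, adjusted p = 0.0764). Slc2a9 ranged from -0.39 to -0.17 and passed without 4 h replicate 3 (-0.39, adjusted p = 0.0122), while -0.17 was its value without 4 h replicate 2. Leaving out single libraries gave 0 to 1 members higher and 1 to 2 lower, 671 to 1594 genes higher and 696 to 1393 lower over all genes, and 2 to 6 higher and 6 to 12 lower over the 6 further lists with tested genes, where fewer samples enter each fit. Without 16 h replicate 1, 2 or 3, 818, 681 and 671 genes were higher and 823, 715 and 696 lower. The cause of the other shifts was not tested. Plain library totals gave 1054 genes higher and 1377 lower, against 1268 and 1313 with TMM. The fall of the Slc2a2 share lay between -15.9 and -12.1 percentage points without single libraries.

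Whether replicate numbers pair the samples was not settled. Same-numbered libraries had correlations of 0.088, 0.093 and 0.045 in their deviations from the group means, against -0.138 to 0.066 for differently numbered ones. Each 4 h library correlated best with the 16 h library of its own number. However, 16 h replicate 3 correlated better with 4 h replicate 1 (0.066) than with its own number. A fit with the replicate number as a block gave 1352 genes higher and 1396 lower, with a log2 fold change of -1.02 for Slc2a2, 0.66 for Slc2a1, -0.29 for Slc2a9, -0.32 for Slc2a8 and -0.29 for Slc2a5, and it changed no call of a member. Depth limits Slc2a3, Slc2a10 and Slc2a12, which had at most 15 counts in any library.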

Other observations

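The SLC2 genes outside the member list were all near the limit of detection. Slc2a4, which encodes GLUT4, the insulin-responsive carrier of muscle and fat, had 0, 0 and 2 counts in the 16 h livers, against 12, 5 and 6 counts in the 4 h livers. Every 16 h count was below every 4 h count, and the ratio of pooled rates was 0.084 (exact 95% interval 0.0096 to 0.339, counting error only). It did not reach the filter on low counts. Without that filter its edgeR adjusted p was 0.0133, but p-values of that fit hardly reflect the spread of each gene between mice. The 5 skeletal muscle markers summed to 0.904 to 3.47 CPM after 16 h and to 0.967 to 4.63 CPM after 4 h. The 5 adipocyte markers summed to 19.1 to 31.5 CPM after 16 h and to 7.48 to 16.0 CPM after 4 h, most of it from Cidec, a lipid droplet gene that fasted hepatocytes also express. Cfd, the adipsin gene and the other adipocyte marker with enough counts, had 0.578, 0.241 and 0.494 CPM in the 16 h livers, against 5.37, 0.902 and 2.04 CPM in the 4 h livers, and fell, the direction of the Slc2a4 counts (-2.66 ± 0.64, edgeR adjusted p = 0.0201). That call, of a gene named after its values were seen, was lost without 4 h replicate 3 or a single 16 h liver (edgeR adjusted p up to 0.0762). Over all alternatives the lowest p for Cfd was 1.51e-10, in the fit without the filter. Adipoq, Plin1 and Lep had at most 2 counts in any library. Whether such tissue contributed to the counts of Slc2a4 was not tested. Slc2a13, which encodes a proton-coupled myo-inositol carrier, had 5, 1 and 3 counts after 16 h, against 8, 11 and 5 counts after 4 h, a pooled ratio of 0.361 (0.148 to 0.805). Slc2a6 had 5 counts in all after 16 h and 12 after 4 h. Without the filter neither passed (edgeR adjusted p = 0.231 for Slc2a13 and 0.533 for Slc2a6). Slc2a7 had 0 counts in every library, which allows up to 0.0239 CPM.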
